A study of Homo sapiens with 9 samples.

Results

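The genes described here are a set of 40 that carry out or regulate glycolysis, or that respond to low oxygen. They comprise 3 glucose and lactate transporters, 17 glycolytic enzymes, 3 PFKFB regulators, 2 pyruvate dehydrogenase kinases, 3 subunits of the hypoxia-inducible factors (HIF) and 12 HIF targets that act outside glycolysis. A gene was measured where the annotation gave its symbol, and no other, to a transcript cluster, which is the group of probes that reports one gene on the array. Where several clusters carried the symbol, the brightest over all arrays was used. That gave 33 of the 40 genes, out of 14232 named on the array. SLC16A3, GAPDH, PGAM1, CA9 and ANKRD37 were not analysed here. The cluster of SLC2A3 also carries SLC2A14, and that of EGLN1 also carries SCAND2P, so neither was counted.

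Glycolysis splits glucose to pyruvate, and lactate dehydrogenase then turns pyruvate to lactate when it is not sent to the mitochondria. Phosphofructokinase is a main control point, and the PFKFB enzymes make and remove the sugar phosphate that switches it on. HIF is a pair of proteins, an oxygen-controlled alpha subunit (HIF1A, or EPAS1, also called HIF-2 alpha) and a stable partner, ARNT. With oxygen present, prolyl hydroxylases of the EGLN family mark the alpha subunit for destruction, so HIF1A is controlled largely as a protein and not through its mRNA. When oxygen is low, the pair binds short DNA elements and raises transcription of transporters, glycolytic enzymes, pyruvate dehydrogenase kinases and other targets. Lymphoblastoid cells are B cells transformed by Epstein-Barr virus, and proliferating B cells of this kind are known for high glucose use.

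The cells were GM12878, an established human lymphoblastoid line, kept in medium with serum. The 3 groups were untreated cells at 0 h, cells after 8 h and cells after 24 h in 10 µM D,L-sulforaphane, an isothiocyanate known to activate the transcription factor NRF2, with 3 cultures and 3 Affymetrix Human Exon 1.0 ST arrays in each. The protocol names a DMSO vehicle, but the only controls here are the untreated 0 h arrays, so treatment and time in culture cannot be told apart at either time. All cultures come from 1 cell line, and no oxygen tension other than that of the incubator is described. Values are log2 signals, on which a difference of 1 is a doubling, and each cluster has its own probes, so differences between genes in signal do not measure transcript amounts. Percentiles among all clusters are given only to describe how bright a cluster is. In bulk RNA, fewer cells with a transcript and less transcript per cell cannot be told apart.

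The arrays had mean signals from 7.97 to 8.14 over 22011 clusters, and the median correlation within groups was 0.992. Untreated replicate 2 stood apart on the first principal component, at 54.4 against -29.9 to 16.4 for the other 8 arrays. The median SD of a cluster was 0.15 in untreated cells, 0.0912 at 8 h and 0.0919 at 24 h. The 13 measured B-cell markers had a median percentile of 88.9 among all clusters. Among 27 measured markers of T, myeloid, erythroid, fibroblast and endothelial cells, list medians lay between the 24.5 and 35.3 percentiles. Their summed linear signals lay below untreated cells without overlap at both times in 2 lists, each mostly through 1 gene. In the myeloid list they did so at 8 h only. The 7 T-cell markers summed to 2194 to 2378 in untreated cells, 1879 to 1981 at 8 h and 1907 to 2031 at 24 h, with LCK at means of 1455, 1219 and 1186. The 5 endothelial markers summed to 800 to 827, 688 to 715 and 659 to 704 in the same order, with PECAM1 at means of 433, 339 and 321. The 5 myeloid markers summed to 561 to 627 in untreated cells, 519 to 538 at 8 h and 505 to 580 at 24 h. The part of these shifts in the results below was not tested.

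The promoters of the 4 genes that passed the test are shown here because these genes carry the changes described below. Each is the 250 bases before the start of a RefSeq transcript in GRCh38.p14, 5′ to 3′ on the strand of the gene, and all 4 genes lie on the plus strand. Capitals mark the core of the HIF binding element, searched as ACGTG and GCGTG on both strands, so that CACGT and CACGC are the reverse-strand forms. Where a gene had several windows, that with the most cores was taken. The PFKP window is chr10:3104359-3104608, 1 of 4 for this gene, and holds 3 cores. Its other windows hold 0, 0 and 1. The ENO2 window is chr12:6914330-6914579, the PFKFB3 window is chr10:6144671-6144920, 1 of 2 for this gene, and the EPAS1 window is chr2:46297157-46297406. Each of these 3 windows holds 1 core.
PFKP: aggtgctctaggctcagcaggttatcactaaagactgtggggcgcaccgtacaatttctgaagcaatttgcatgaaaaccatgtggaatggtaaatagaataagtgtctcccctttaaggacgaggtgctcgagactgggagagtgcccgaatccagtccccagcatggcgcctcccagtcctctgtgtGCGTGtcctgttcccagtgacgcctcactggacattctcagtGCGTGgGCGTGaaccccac
ENO2: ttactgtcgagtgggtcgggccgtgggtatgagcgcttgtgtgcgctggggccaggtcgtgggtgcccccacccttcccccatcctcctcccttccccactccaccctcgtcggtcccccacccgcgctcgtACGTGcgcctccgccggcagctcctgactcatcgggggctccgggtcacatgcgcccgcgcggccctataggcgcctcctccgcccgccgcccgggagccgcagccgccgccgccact
PFKFB3: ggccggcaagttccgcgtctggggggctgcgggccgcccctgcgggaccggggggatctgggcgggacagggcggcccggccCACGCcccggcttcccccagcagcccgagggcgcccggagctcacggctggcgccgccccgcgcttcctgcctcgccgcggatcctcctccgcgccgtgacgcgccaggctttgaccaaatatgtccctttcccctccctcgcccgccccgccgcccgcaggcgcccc
EPAS1: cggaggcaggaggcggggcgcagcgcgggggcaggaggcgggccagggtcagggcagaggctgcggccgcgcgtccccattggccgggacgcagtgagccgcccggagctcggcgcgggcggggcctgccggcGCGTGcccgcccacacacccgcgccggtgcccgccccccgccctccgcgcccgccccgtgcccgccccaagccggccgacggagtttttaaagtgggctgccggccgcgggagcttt

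Of the 65 windows that RefSeq gives for 35 of the 40 genes, 39 (60.0%) held at least 1 such core, and 29 of the 35 genes had one. The share over all 35116 windows of the same length was 43.2%, and 12945 of their 27305 genes had one. The genes of the set have more windows each, which gives more places for a match. The core of the antioxidant response element through which NRF2 acts, TGACNNNGC on either strand, was in 7 of the 65 windows (10.8%) and in 10.9% of all windows. None of the 4 windows shown held it. These matches are letters only and no binding was measured.

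After 8 h of sulforaphane, 4 of the 33 genes had fallen and none had risen. The 4 were PFKFB3, ENO2, PFKP and EPAS1, at 1.29-fold to 1.40-fold lower. After 24 h EPAS1 alone was lower by the test, at 1.27-fold, and no gene of the set was called between 8 h and 24 h. A gene was called at an adjusted p below 0.05 in limma over all clusters. Over all 22011 clusters, 0.327% were called lower and 0.268% higher at 8 h, and 0.791% lower and 0.831% higher at 24 h. Between 8 h and 24 h, 0.1% of clusters were called higher and 0.227% lower. A fit of only the 2 groups compared, with fewer arrays behind the spread, ended all 5 calls, although the differences were the same. With the replicate number as a block, PFKFB3 at 8 h alone kept its call. So 4 of 33 lower at 8 h stands beside a background of 0.327%, and beside 62 of the 14432 clusters with a single symbol. The 1 of 33 at 24 h is a single gene. The members were chosen with earlier results of these data known, so this contrast is no test of the set.

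**Figure D1:**
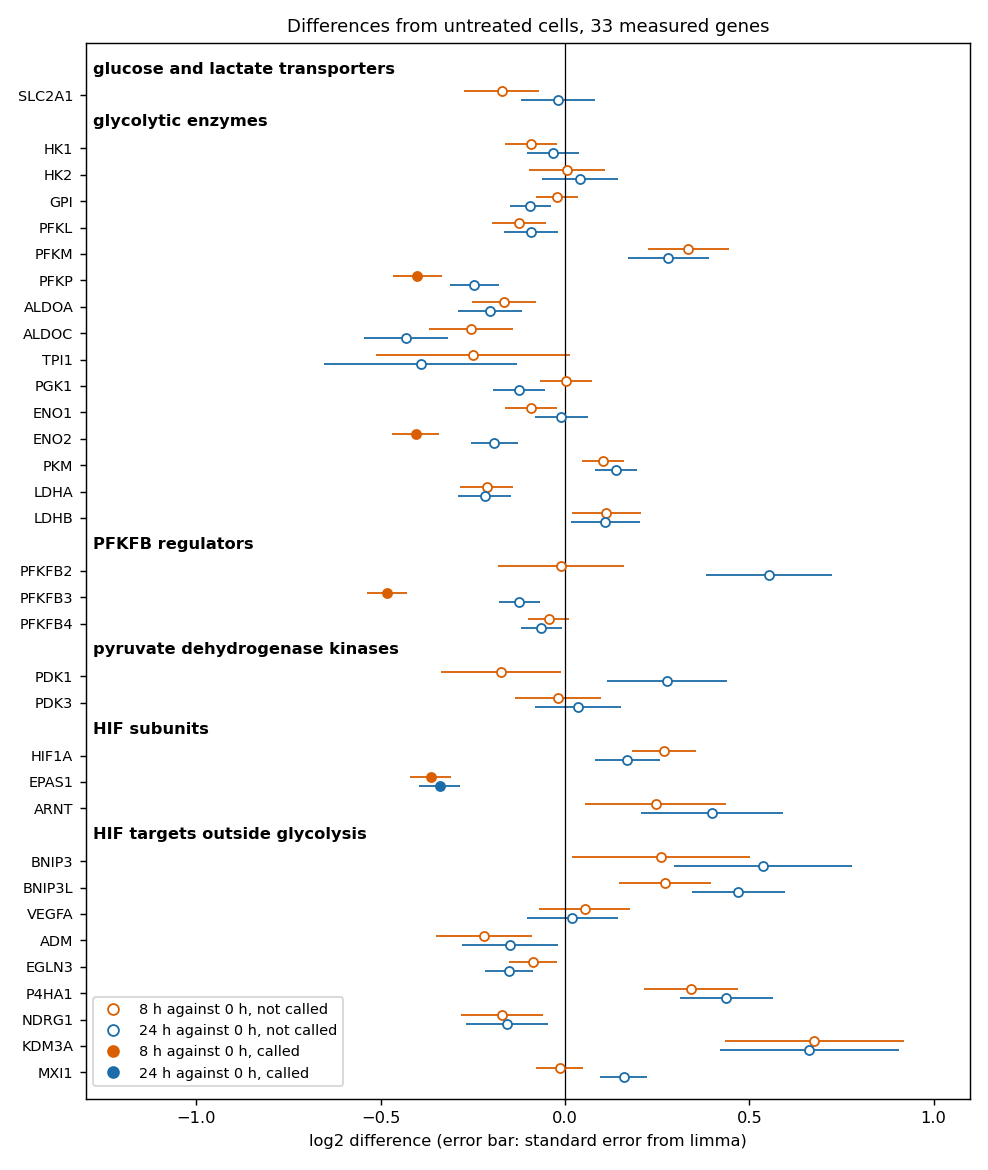
Log2 differences from untreated cells (horizontal axis) for the 33 measured genes, by role. Points are differences at 8 h (orange) and 24 h (blue) with standard errors from limma, and filled points passed the test: PFKP, ENO2, PFKFB3 and EPAS1 at 8 h, and EPAS1 at 24 h.

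The set as a whole was centred close to 0. The median log2 difference of its 33 genes was -0.04 at 8 h and -0.02 at 24 h, against -0.01 and 0.02 for all clusters. From 8 h to 24 h the medians were 0.03 and 0.02. A looser count takes the genes whose 3 arrays in one group all lie on one side of the 3 arrays of the other. At 8 h this held for 4 genes higher and 6 lower, where 9.06% and 8.55% of all clusters did so. At 24 h it held for 7 higher and 9 lower, against 15.6% and 8.75% of all clusters. Between 8 h and 24 h it held for 8 higher and 2 lower, against 15.2% and 6.4%. At an unadjusted p below 0.05, 4 genes were higher and 5 lower at 8 h, 7 and 7 at 24 h, and 6 and 0 between the times. Over all clusters the shares higher and lower at that level were 8.55% and 6.57%, 13.9% and 6.45%, and 6.91% and 3.45%, in the same order. Over the clusters with a single symbol they were 5.68% and 8.09%, 13.1% and 7.63%, and 7.86% and 2.97%.

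Of the transporters only SLC2A1, the widely expressed glucose carrier GLUT1, was measured. Its signals were 11.04, 10.79 and 11.18 in untreated cells, 10.90, 10.84 and 10.76 at 8 h, and 10.97, 10.93 and 11.06 at 24 h. The untreated arrays span all treated values but that of 8 h replicate 3, which lies just below them. The differences from 0 h were -0.17 ± 0.10 (SE, adjusted p = 0.45) at 8 h and -0.02 ± 0.10 (adjusted p = 0.92) at 24 h. Without untreated replicate 2 they were -0.28 (adjusted p = 0.14) and -0.13 (adjusted p = 0.47). The shared cluster of SLC2A3 and SLC2A14 was not called either, at -0.15 ± 0.09 (adjusted p = 0.47) and 0.04 (adjusted p = 0.81).

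The 15 measured enzymes lay more often below than above untreated cells, with 10 below and 5 above 0 at 8 h and 11 below and 4 above at 24 h. Their median difference was -0.09 at both times. Of the 14432 clusters with a single symbol, 8762 lay below and 5656 above 0 at 8 h. At 24 h 7524 lay below and 6906 above, and the medians were -0.04 and -0.01. Only 2 of the 15 fell by the test, both at 8 h, and none was called at 24 h or between the times. Groups did not overlap for 4 lower and 1 higher at 8 h, and for 7 lower and 2 higher at 24 h. All clusters did so in 8.55% lower and 9.06% higher at 8 h, and in 8.75% and 15.6% at 24 h. Of the 14432 clusters with a single symbol, 1478 were lower and 950 higher without overlap at 8 h, and 1511 and 2182 at 24 h. The 2 enzymes called at 8 h were ENO2, the enolase known from neurons, and PFKP, the phosphofructokinase named for platelets.

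ENO2 signals were 9.70, 9.56 and 9.62 in untreated cells, 9.27, 9.17 and 9.23 at 8 h, and 9.38, 9.47 and 9.46 at 24 h. All 3 untreated arrays lay above every treated array, and the 24 h arrays lay between the other groups without overlap. ENO2 fell by 0.41 ± 0.06 at 8 h (adjusted p = 0.039, 1.32-fold). The 24 h difference was -0.19 ± 0.06 (adjusted p = 0.17), and the difference between the times was 0.21 ± 0.06 (adjusted p = 0.27), so neither a remaining decrease nor a recovery passed the test. The 8 h call was near the threshold. With each of the 9 arrays left out in turn it passed in 2 fits, those without untreated replicate 1 or 2 (adjusted p from 0.025 to 0.16 over the 9 fits). It was also lost on omission of any single 24 h array, although these do not enter the 8 h difference. That difference stayed between -0.47 and -0.37 in all settings tried.

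PFKP signals were 10.49, 10.43 and 10.50 in untreated cells, 10.13, 9.96 and 10.14 at 8 h, and 10.20, 10.23 and 10.26 at 24 h. The order of the groups was the same as for ENO2, again without overlap. PFKP fell by 0.40 ± 0.07 at 8 h (adjusted p = 0.049, 1.32-fold). At 24 h the difference was -0.25 ± 0.07 (adjusted p = 0.11), and between the times it was 0.15 ± 0.07 (adjusted p = 0.48). The 8 h call was just inside the threshold and passed in 2 of the 9 fits that leave out an array, again those without untreated replicate 1 or 2 (adjusted p from 0.046 to 0.19).

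The largest 24 h difference among the enzymes belonged to ALDOC, the aldolase typical of brain. Its signals were 10.26, 10.24 and 10.38 in untreated cells, 10.18, 9.77 and 10.17 at 8 h, and 9.80, 9.93 and 9.86 at 24 h. Both treated groups lay below the untreated arrays, but the 8 h group was spread by replicate 2. The differences were -0.25 ± 0.11 at 8 h (adjusted p = 0.34) and -0.43 ± 0.11 at 24 h (adjusted p = 0.11, 1.35-fold), and neither was called. Without 8 h replicate 2 the 24 h difference passed, at an adjusted p of 0.034, and it also passed after quantile normalization.

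**Figure D2:**
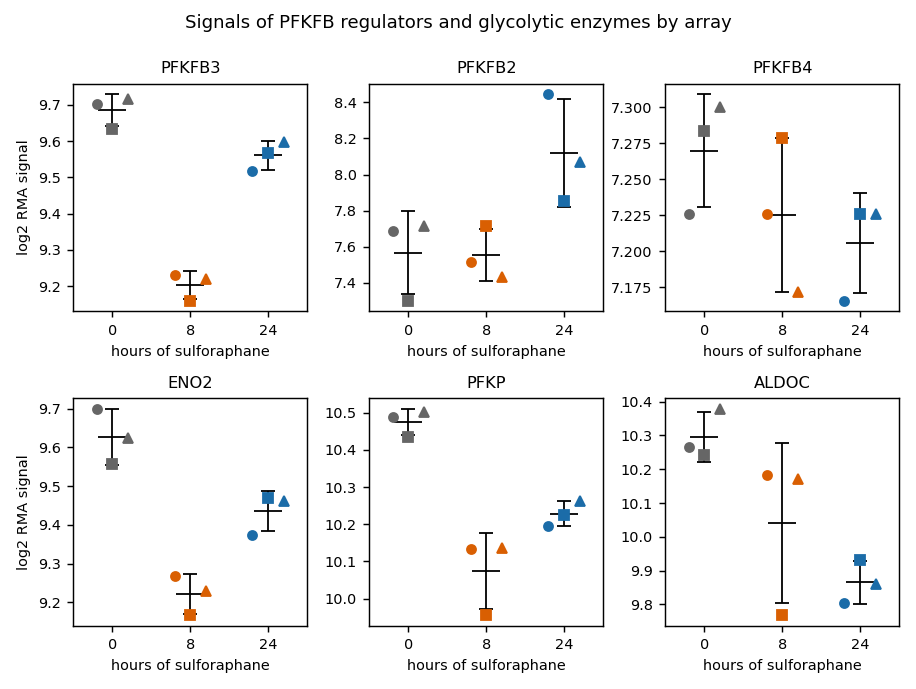
Log2 signals (vertical axis, its own range in each panel) of PFKFB and glycolytic genes by hours of sulforaphane. Each point is an array (circle replicate 1, square 2, triangle 3), and bars give the mean ± SD of 3: PFKFB3, ENO2 and PFKP are lowest at 8 h with 24 h between, and ALDOC is lowest at 24 h in mean.

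The other 12 enzymes differed by -0.25 to 0.33 at 8 h and -0.39 to 0.28 at 24 h, and none was called. PFKM, the muscle-type phosphofructokinase, was the highest of them, at 0.33 ± 0.11 (adjusted p = 0.21) and 0.28 ± 0.11 (adjusted p = 0.22). LDHA, which makes lactate, differed by -0.21 ± 0.07 (adjusted p = 0.23) and -0.22 ± 0.07 (adjusted p = 0.17), with its 3 untreated arrays above all 6 treated arrays. PKM, the last enzyme on the path to pyruvate, lay the other way, at 0.10 and 0.14 (adjusted p = 0.42 and 0.23), and its untreated arrays lay below all 6 treated arrays. HK1 and HK2, which add the first phosphate to glucose, GPI, PFKL, PGK1 and ENO1 were within 0.13 of untreated cells at both times. ALDOA differed by -0.17 and -0.20 (adjusted p = 0.41 and 0.24), and LDHB by 0.11 at both times (adjusted p = 0.58 and 0.50). TPI1 was reported by a dim cluster, at the 11.3 percentile of mean signal, with an SD of 0.53 at 8 h. Its differences of -0.25 ± 0.26 and -0.39 ± 0.26 (adjusted p = 0.66 and 0.39) have the widest errors of the set.

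Among the PFKFB regulators, PFKFB3 had the largest fall of the set. This isoform has very high kinase relative to phosphatase activity and so drives glycolysis forward. Its signals were 9.70, 9.63 and 9.72 in untreated cells, 9.23, 9.16 and 9.22 at 8 h, and 9.52, 9.57 and 9.60 at 24 h. The 8 h arrays lay below all others, and the 24 h arrays lay just under the untreated arrays. PFKFB3 fell by 0.48 ± 0.06 at 8 h (adjusted p = 0.016, 1.40-fold). At 24 h the difference was -0.12 ± 0.06 (adjusted p = 0.25). The difference of 0.36 ± 0.06 between 8 h and 24 h lay just outside the threshold (adjusted p = 0.051), and it passed without untreated replicate 2 (adjusted p = 0.029). The fit without that array called 73 clusters higher between the times, against 22 with all arrays. The 8 h call held in 6 of the 9 fits that leave out an array. It was lost without untreated replicate 3 (adjusted p = 0.095), 8 h replicate 1 (0.087) or 8 h replicate 3 (0.076).

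PFKFB2, the isoform known from heart, did not share this course. Its signals were 7.69, 7.30 and 7.72 in untreated cells, 7.52, 7.72 and 7.43 at 8 h, and 8.44, 7.85 and 8.07 at 24 h. The 24 h arrays were above the other 6, but they spread by 0.30 (SD). The differences were -0.01 ± 0.17 at 8 h (adjusted p = 0.98), 0.55 ± 0.17 at 24 h (adjusted p = 0.15, 1.47-fold) and 0.56 ± 0.17 between the times (adjusted p = 0.29). PFKFB4, a HIF-responsive isoform, had signals of 7.23, 7.28 and 7.30 in untreated cells, 7.23, 7.28 and 7.17 at 8 h, and 7.17, 7.23 and 7.23 at 24 h. Its groups overlapped throughout, with differences of -0.04 (adjusted p = 0.71) and -0.06 (adjusted p = 0.50).

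The pyruvate dehydrogenase kinases keep pyruvate out of the mitochondria by switching off pyruvate dehydrogenase, and neither passed the test. PDK1, a known HIF target, had signals of 9.06, 8.44 and 8.97 in untreated cells, 8.61, 8.74 and 8.61 at 8 h, and 9.27, 8.93 and 9.10 at 24 h. Untreated replicate 2 was the lowest of the 9 arrays. The differences were -0.17 ± 0.16 at 8 h (adjusted p = 0.62), 0.28 ± 0.16 at 24 h (adjusted p = 0.35) and 0.45 ± 0.16 between the times (adjusted p = 0.38). Without untreated replicate 2 the differences were -0.37 at 8 h (adjusted p = 0.17) and 0.08 at 24 h (adjusted p = 0.75). PDK3 differed by -0.02 and 0.03 (adjusted p = 0.94 and 0.87).

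The HIF subunits did not share a direction. EPAS1, the alpha subunit best known from endothelial cells, fell at both times, while no difference of HIF1A or ARNT was called. EPAS1 signals were 7.83, 7.74 and 7.82 in untreated cells, 7.42, 7.44 and 7.42 at 8 h, and 7.42, 7.51 and 7.43 at 24 h. Every treated array was below every untreated array, and the treated groups overlapped. EPAS1 fell by 0.37 ± 0.06 at 8 h (adjusted p = 0.038, 1.29-fold) and by 0.34 ± 0.06 at 24 h (adjusted p = 0.033, 1.27-fold). From 8 h to 24 h the difference was 0.02 ± 0.06 (adjusted p = 0.92). Its mean signal was at the 40.1 percentile of all clusters, and the values used here do not say whether a signal of this size is above background. This lay within the percentile ranges of the fibroblast (2.8 to 55.5), erythroid (11.3 to 54.4), endothelial (9.5 to 57.5) and T-cell (13.9 to 86.3) markers. It lay above the range of the myeloid markers (7.3 to 36.2). The 8 h call passed in 2 of the 9 fits that leave out an array, without untreated replicate 1 or 2 (adjusted p from 0.024 to 0.17). The 24 h call passed in 3, without either of these or without 8 h replicate 2 (0.03 to 0.14). PECAM1, an endothelial marker that also had a cluster here, fell by 0.43 ± 0.08 at 24 h (adjusted p = 0.040). The other 4 endothelial markers, CDH5, VWF, KDR and TEK, differed by -0.12 to -0.01 at 24 h and were not called. The part of this in the fall of EPAS1 was not tested.

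HIF1A signals were 11.43, 11.15 and 11.10 in untreated cells, 11.49, 11.47 and 11.52 at 8 h, and 11.41, 11.40 and 11.37 at 24 h. The 8 h arrays lay above all others, and untreated replicate 1 lay among the treated arrays. The differences were 0.27 ± 0.09 at 8 h (adjusted p = 0.21) and 0.17 ± 0.09 at 24 h (adjusted p = 0.30). Without untreated replicate 1 HIF1A was 0.37 higher at 8 h and was called (adjusted p = 0.026), as it was at 24 h (adjusted p = 0.048). The array left out there had the highest untreated HIF1A signal. The fit without it called 476 clusters higher at 8 h and 550 at 24 h, against 59 and 183 with all arrays. ARNT signals were 10.28, 9.62 and 10.30 in untreated cells, 10.34, 10.37 and 10.22 at 8 h, and 10.73, 10.27 and 10.39 at 24 h. Untreated replicate 2 was the lowest and 24 h replicate 1 the highest of the 9 arrays, and the groups otherwise overlapped. The ARNT differences were 0.25 ± 0.19 (adjusted p = 0.55) and 0.40 ± 0.19 (adjusted p = 0.28), and without that array they were 0.02 and 0.18.

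**Figure D3:**
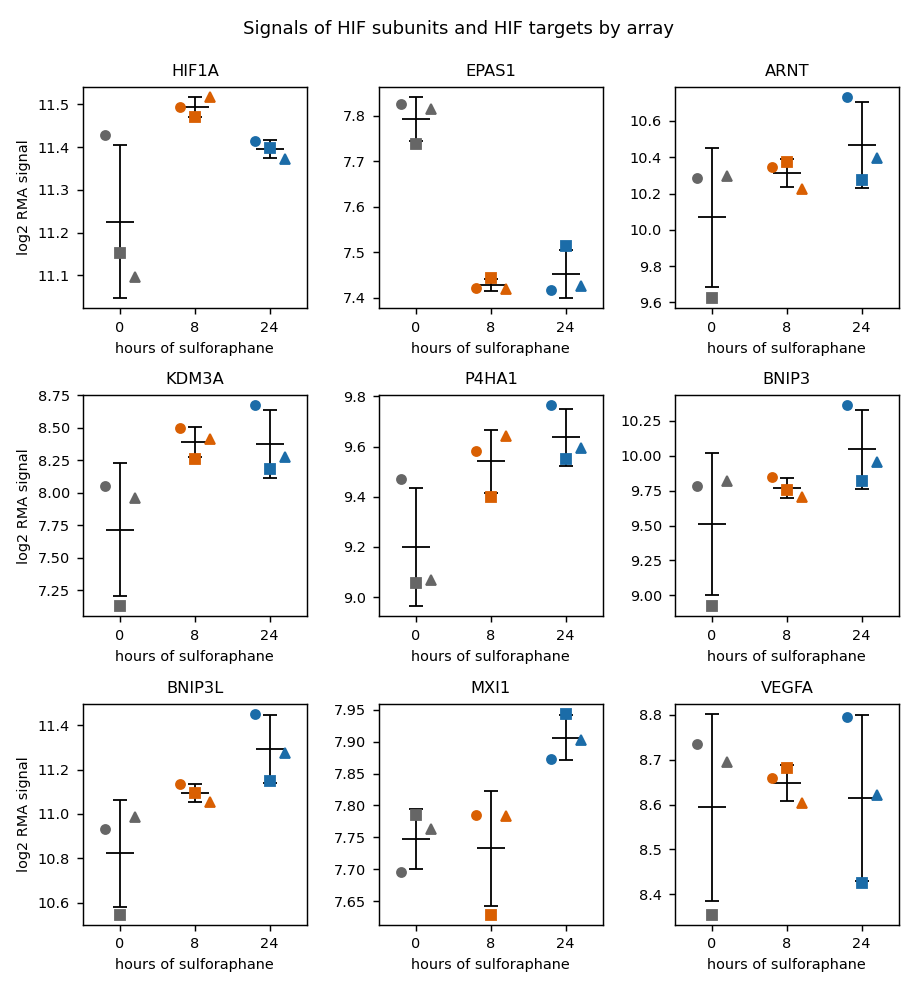
Log2 signals (vertical axis, its own range in each panel) of the HIF subunits and of HIF-responsive genes by hours of sulforaphane. Each point is an array (circle replicate 1, square 2, triangle 3), and bars give the mean ± SD of 3: EPAS1 is below untreated cells at both times, and in ARNT and KDM3A the square of the untreated group lies far under its circle and triangle.

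No HIF target outside glycolysis was called at any time, in either direction. Of the 9 measured, 5 were above 0 at 8 h and 6 at 24 h, with medians of 0.05 and 0.16. Without untreated replicate 2, 4 were above 0 at 8 h and 5 at 24 h, and the 8 h median turned to -0.03. At an unadjusted p below 0.05, 2 were higher at 8 h, 4 were higher and 1 lower at 24 h. Over all clusters 8.55% were higher and 6.57% lower at that level at 8 h, and 13.9% and 6.45% at 24 h. Groups did not overlap for 2 targets at 8 h and 4 at 24 h, all of them higher. Of all clusters, 9.06% were higher and 8.55% lower without overlap at 8 h, and 15.6% and 8.75% at 24 h.

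KDM3A, a histone demethylase that removes methyl groups from lysine 9 of histone H3 and needs oxygen to work, had the largest difference of the set. Its signals were 8.05, 7.13 and 7.96 in untreated cells, 8.50, 8.26 and 8.41 at 8 h, and 8.67, 8.19 and 8.27 at 24 h. All 6 treated arrays lay above the untreated arrays, yet untreated replicate 2 was far below its own group. The differences were 0.68 ± 0.24 at 8 h (adjusted p = 0.25, 1.60-fold) and 0.66 ± 0.24 at 24 h (adjusted p = 0.20, 1.58-fold). Without untreated replicate 2 they were 0.38 and 0.37, and they were not called.

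Other targets with positive differences shared this dependence in part. BNIP3 and BNIP3L, which mark mitochondria for removal, differed at 24 h by 0.54 ± 0.24 (adjusted p = 0.26) and 0.47 ± 0.13 (adjusted p = 0.11). At 8 h they differed by 0.26 ± 0.24 (adjusted p = 0.62) and 0.27 ± 0.13 (adjusted p = 0.36). Without untreated replicate 2 BNIP3 stood at -0.03 at 8 h and 0.24 at 24 h, and BNIP3L at 0.13 and 0.33. P4HA1, a subunit of collagen prolyl hydroxylase, differed by 0.34 ± 0.13 (adjusted p = 0.26) and 0.44 ± 0.13 (adjusted p = 0.13), and by 0.27 and 0.37 without that array. Of the fits that leave out an array, the 24 h difference was called in that without untreated replicate 1 (adjusted p = 0.039), and it was also called with array weights fitted gene by gene. Those 2 settings called 550 and 1133 clusters higher at 24 h, against 183 in the main fit. MXI1, a repressor that opposes MYC, differed by -0.01 and 0.16 (adjusted p = 0.22 at 24 h). VEGFA, the vascular growth factor, stood at 0.05 and 0.02, and at -0.07 and -0.10 without untreated replicate 2. The differences of ADM, a vasodilator peptide, were -0.22 and -0.15, and -0.10 and -0.03 without that array. EGLN3, the prolyl hydroxylase most strongly induced by HIF in many cells, was at -0.09 and -0.15, the latter with an unadjusted p of 0.047 and an adjusted p of 0.24. NDRG1, a stress-response gene, was at -0.17 and -0.16, and at -0.03 and -0.02 without that array. Its 3 arrays at 24 h share the value 7.09. The shared cluster of EGLN1 and SCAND2P differed by 0.00 ± 0.07 at 8 h.

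Array by array, the same cultures were extreme for many of the genes with positive differences. Untreated replicate 2 was the lowest of the 9 arrays for 9 of the 33 genes: HK2, PFKFB2, PDK1, ARNT, BNIP3, BNIP3L, VEGFA, P4HA1 and KDM3A. Replicate 1 at 24 h was the highest for 9 genes: PKM and all of the former but HK2. Over all clusters untreated replicate 2 was lowest in 30.4% and 24 h replicate 1 highest in 21%, so the same arrays were extreme across the table. On the first principal component these arrays were also the extremes, at 54.4 and -29.9. Replicate 2 at 8 h was the lowest array for 11 genes, among them PFKP, ENO2 and PFKFB3, and for 16.6% of all clusters. Untreated replicate 3 was the highest for 9 genes, among them PFKP and PFKFB3, and for 9.8% of all clusters. Without 8 h replicate 2, PFKFB3 passed at 8 h while ENO2, PFKP and EPAS1 did not, and none of the 8 h calls passed without untreated replicate 3. What sets these arrays apart was not tested. For the 4 genes that fell, leaving out untreated replicate 2 kept all calls, with 8 h adjusted p of 0.016 for PFKFB3, 0.024 for EPAS1, 0.025 for ENO2 and 0.046 for PFKP, and a 24 h adjusted p of 0.030 for EPAS1. That fit called more clusters lower in general, 215 against 72 with all arrays at 8 h and 216 against 174 at 24 h.

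**Figure D4:**
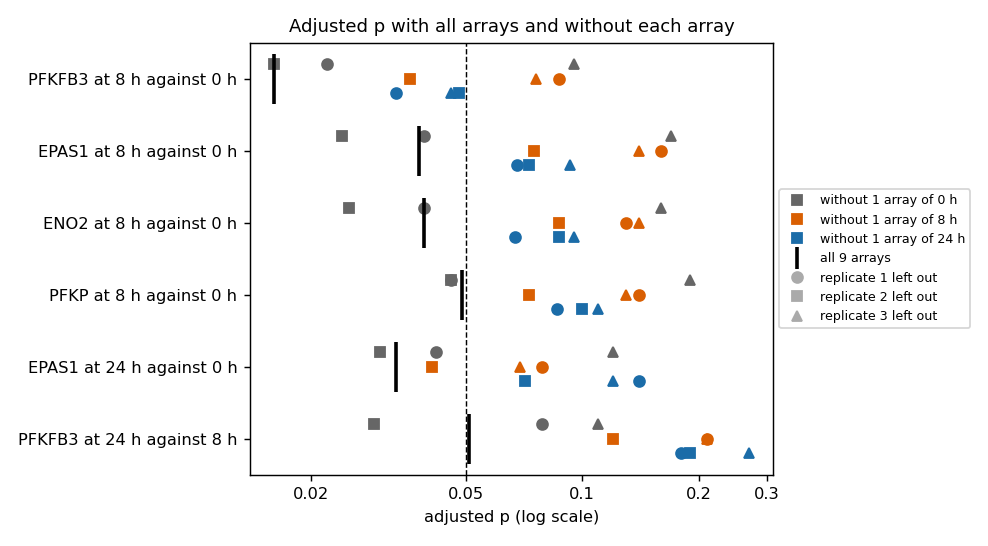
Adjusted p from limma (horizontal axis, log scale) for 6 differences, with all 9 arrays (black line) and with each array left out (colour for its time, shape for its replicate), and a dashed line at 0.05. PFKFB3 at 8 h lies below 0.05 in 6 of 9 such fits, and the other calls in 2 or 3.

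Related isoforms were compared on the same array, where the log2 difference between 2 genes cancels any shift that both share. The changes in 11 pairs were tested with a two-sided exact permutation test over 3 against 3 arrays. Its smallest possible p is 0.10, so no pair could pass 0.05, and the smallest value adjusted over the 33 tests was 0.22. The changes below are therefore given as sizes, with exact p-values before adjustment. The genes of these pairs include those called above, so the pairs are no separate support.

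The log2 difference between the signals of the HIF alpha subunits had the largest change of the 11 pairs at 8 h. EPAS1 minus HIF1A was -3.60, -3.41 and -3.28 on the untreated arrays, -4.07, -4.03 and -4.10 at 8 h, and -4.00, -3.88 and -3.95 at 24 h. The change was -0.63 ± 0.10 (SE) at 8 h and -0.51 ± 0.10 at 24 h, each with exact p = 0.10 and no overlap with untreated arrays. Relative to PFKFB3, PFKFB4 was 0.44 ± 0.06 higher at 8 h (exact p = 0.10) and 0.06 ± 0.04 at 24 h (exact p = 0.30). PFKFB2 was 0.47 ± 0.15 and 0.68 ± 0.22 higher relative to PFKFB3 (exact p = 0.10 for both). The log2 difference of PFKFB4 and PFKFB3 thus moved at 8 h and lay close to untreated cells at 24 h. That of PFKFB2 and PFKFB3 stayed apart at both times. PFKFB4 itself differed by -0.04 at 8 h, in a cluster at the 34.0 percentile. Its pair with PFKFB3 therefore mostly restates the fall of PFKFB3.

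Within the phosphofructokinases, PFKM over PFKL was 0.46 ± 0.12 higher at 8 h and 0.37 ± 0.11 at 24 h, and PFKP over PFKL was -0.28 ± 0.04 and -0.15 ± 0.04, each with exact p = 0.10. So the changes of the muscle and platelet forms relative to the liver form had opposite signs. ENO2 over ENO1, the widely expressed enolase, was -0.31 ± 0.05 at 8 h (exact p = 0.10) and -0.18 ± 0.07 at 24 h (exact p = 0.20). ALDOC over ALDOA was -0.09 ± 0.06 (exact p = 0.30) and -0.23 ± 0.06 (exact p = 0.10). LDHA over LDHB, the form suited to lactate production over the form suited to its use, was -0.32 ± 0.15 (exact p = 0.20) and -0.33 ± 0.16 (exact p = 0.30). For HK2 over HK1, PDK1 over PDK3 and BNIP3 over BNIP3L the changes from untreated cells lay between -0.15 and 0.24.

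**Figure D5:**
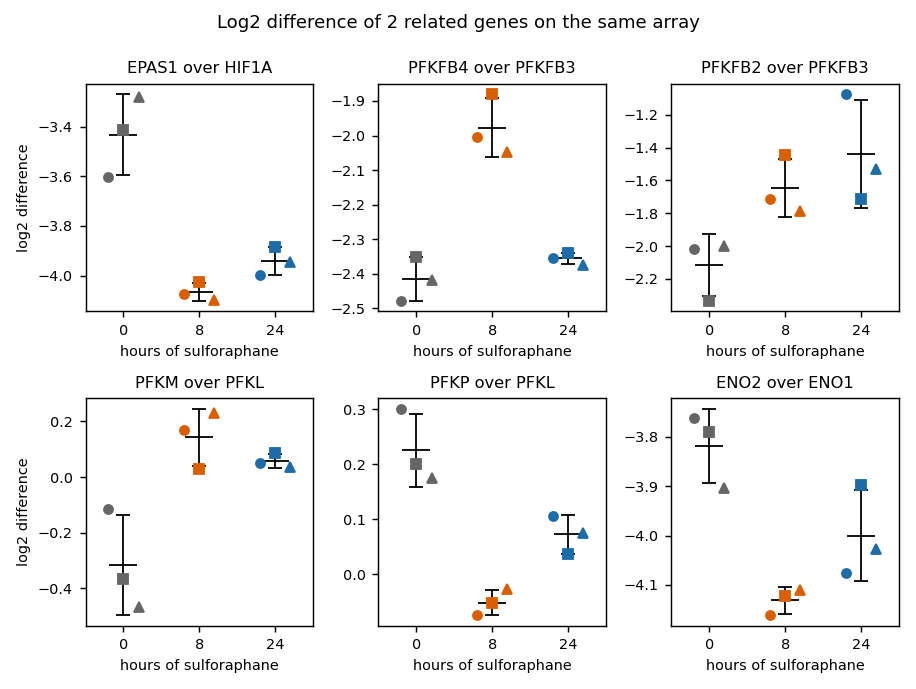
Log2 difference between 2 related genes on the same array (vertical axis, its own range in each panel) by hours of sulforaphane. Each point is an array (circle replicate 1, square 2, triangle 3), and bars give the mean ± SD of 3: EPAS1 over HIF1A is lower at both times, and PFKFB4 over PFKFB3 is higher at 8 h than at 0 h or 24 h.

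Genes that act beside these were taken from 5 further lists, and none of their 74 measured members was called in any comparison. Of 15 other glycolytic isozymes, TIGAR had the smallest p at both times. TIGAR removes the sugar phosphate that PFKFB3 makes, and it differed by 0.53 ± 0.13 at 8 h (adjusted p = 0.12) and 0.59 ± 0.13 at 24 h (adjusted p = 0.075), with all 6 treated arrays above the untreated arrays. Next were ADPGK at 8 h, at 0.18 (adjusted p = 0.37), and BPGM at 24 h, at 0.32 (adjusted p = 0.20). Among 8 other sugar and monocarboxylate transporters the lead was BSG, the chaperone of lactate carriers, at -0.20 ± 0.06 (adjusted p = 0.18) and -0.22 ± 0.06 (adjusted p = 0.12). SLC2A5 at 8 h was at -0.26 (adjusted p = 0.25), and SLC2A8 at 24 h at 0.17 (adjusted p = 0.31). Of 10 genes for the entry of pyruvate into mitochondria, none passed even an unadjusted p of 0.05. The smallest p there belonged to PC and MPC2 at 8 h, at -0.14 and 0.22, and to PDP1 and MPC2 at 24 h, both at 0.31. Without untreated replicate 2, PC and MPC2 stood at -0.06 and 0.01 at 8 h, and PDP1 and MPC2 at 0.12 and 0.10 at 24 h.

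Of 11 other components of the HIF pathway, ELOB, a subunit of the ligase that removes HIF alpha, differed by 0.37 ± 0.09 at 8 h (adjusted p = 0.11). HIF1AN, the asparagine hydroxylase that blocks HIF alpha activity, differed by 0.44 ± 0.12 at both times (adjusted p = 0.14 and 0.12), without overlap. SIAH2, a ligase for the prolyl hydroxylases, was at 0.23 at 24 h (adjusted p = 0.22). Of 30 other HIF targets, 3 were higher and 3 lower at 8 h at an unadjusted p below 0.05, and 5 and 1 at 24 h. These are 10% and 10% of the list at 8 h and 16.7% and 3.33% at 24 h, close to the shares of all clusters at 8 h, 8.55% and 6.57%, and at 24 h, 13.9% and 6.45%. PLOD1, a collagen lysyl hydroxylase, came closest to a call, at 0.67 ± 0.12 at 8 h (adjusted p = 0.054), and GYS1, the glycogen synthase of muscle, was at -0.28 ± 0.06 (adjusted p = 0.083). At 24 h INSIG2, which holds back sterol synthesis, was at 0.66 ± 0.18 (adjusted p = 0.12), and HILPDA, a lipid droplet protein, at 0.41 ± 0.13 (adjusted p = 0.15). From 8 h to 24 h the leading targets were BHLHE40, at 0.48 ± 0.12 (adjusted p = 0.20), and GBE1, at 0.65 ± 0.17 (adjusted p = 0.22). In the other lists the leading differences between the times were those of BPGM (0.41) and PGAM2 (-0.15), PDP1 (0.27) and PDHB (0.30), SLC2A5 (0.25) and SLC2A11 (0.17), and SIAH2 (0.21) and CREBBP (-0.14), with adjusted p from 0.27 to 0.65.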

How the data were processed

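Gene expression was measured in 9 cultures of GM12878 cells, 3 per group, with 1 array each. The deposited values are log2 signals, 1 per transcript cluster and array, which the authors made with gene-level RMA and sketch-quantile normalization in Affymetrix Expression Console, per the labels and the submitters' processing notes. The genome build and the software versions were not given in the sources used here. Replicates are separate cultures of 1 line, so p-values measure only the spread between them.

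Of 22011 clusters, 14432 carried a single symbol, 2408 several and 5171 none. limma 3.58.1 (R 4.3.3) fitted 1 mean per group to every cluster, with a spread shared by all 9 arrays, eBayes and two-sided tests. Benjamini-Hochberg adjustment ran over every cluster, separately for each comparison. The number of arrays limits the precision. The steps were tested on simulated data.

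The members and lists were chosen with earlier results of these data known. Every array value is given for members called in any comparison, for the HIF and PFKFB genes, and for the member of each role with the largest difference from 0 h. From the 5 further lists the 2 genes with the smallest p in each comparison were named where none was called. Alternatives were a replicate block, fewer clusters, quantile normalization, centring, trended and robust eBayes, array weights, averaged or shared clusters, a threshold of 0.01, a separate fit of each pair of groups, and omission of each array in turn. After the data had been seen, weights estimated gene by gene were added.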

Additional observations from a re-analysis of the deposited data

How the results depend on the processing

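Counts of called genes held when arrays were centred, when clusters of a symbol were averaged and when shared clusters were included. At 8 h, 4 were lower in the analysis reported; the count was 14 with array weights, 1 with a replicate block, and 0 in fits of only the 2 groups compared or at a threshold of 0.01. None was higher at 8 h, but 5 were with array weights and 3 with weights fitted gene by gene. At 24 h, 1 was lower; the count was 11 with array weights, 4 with gene-by-gene weights, 2 after quantile normalization, and 0 with the block, in fits of 2 groups or at 0.01. None was higher at 24 h, but 8 and 2 were with the 2 kinds of weights. These settings also changed the counts over all 22011 clusters. At 8 h, 72 were lower as reported, 5265 with array weights, 34 with the block and 3 in fits of 2 groups. At 24 h the same counts were 174, 4163, 137 and 14, with 756 for gene-by-gene weights and 344 after quantile normalization. As reported, 59 were higher at 8 h and 183 at 24 h, against 4338 and 4847 with array weights and 948 and 1133 gene by gene. From 8 h to 24 h none was higher, but 4 were with either kind of weights and 1, PFKFB3, without the dimmest 25% of clusters. Over all clusters 22 were higher between these times as reported, 915 and 845 with the 2 kinds of weights, and 37 without the dimmest. The array weights gave untreated replicate 3 a weight of 29.8 and did not converge, and HK2 at 8 h against 0 h then stood at -0.16. With 1 array left out, the counts ran from 0 to 4 lower and 0 to 1 higher at 8 h, 0 to 2 lower and 0 to 2 higher at 24 h, and 0 to 1 higher from 8 h to 24 h. Over all clusters those fits called 5 to 215 lower and 4 to 476 higher at 8 h, and 12 to 218 and 9 to 550 at 24 h. Trended and robust eBayes left 3 lower at 8 h, without PFKP. Same-numbered arrays correlated from -0.14 to 0.39 in their deviations, and differently numbered arrays from -0.42 to 0.13. Between 0 h and 24 h the same-numbered values were 0.39, 0.38 and 0.06, and those with 8 h arrays ran from -0.14 to 0.10. The labels do not say whether the numbers pair the samples, and the main fit did not take them to do so. In the paired fit, with the number as a replicate block, PFKFB3 was the gene called at 8 h. ENO2, PFKP and EPAS1 at 8 h and EPAS1 at 24 h lost their calls there. Signals near background cannot be told from it in these files, which limits what can be said of dim clusters such as TPI1.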

Other observations

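The 4 genes that fell at 8 h were also tested over the 3 time points together, with limma's moderated F-test adjusted over all clusters. PFKFB3 had an adjusted p of 0.019, EPAS1 of 0.035, ENO2 of 0.049 and PFKP of 0.056. The F-test used the same fit and arrays by which these genes had been picked, so its values are no separate support. BLK, a B-cell kinase on the list of B-cell markers, rose by 0.44 ± 0.08 at 24 h (adjusted p = 0.038). It was the 1 marker called at 24 h of the 13 measured on that list. The others differed by -0.27 (SPIB) to 0.36 (CR2) at 24 h, on both sides of 0.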
